A study of Mus musculus with 4 samples.

Results

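The proteasome is the large protease that degrades ubiquitin-tagged proteins, and its constitutive subunits were examined here in ventricles of mice with and without the orphan nuclear receptor ERRα (gene Esrra), a regulator of mitochondrial energy genes. The members were the 33 named genes of the core and regulatory particles, the assembly factor Psmd10 and the activator Psme3, with the inducible subunits of the immunoproteasome left out. Every probe set annotated to exactly 1 of these genes was taken, which gave 43 probe sets for 33 of the 8251 genes on the array with such a probe set. Of these, 38 probe sets of 31 genes passed the filter on dim signals. Psmd2 and Psmd10 had no probe set that passed. The data were 4 one-colour oligonucleotide arrays, 2 of ventricles from ERRα-null mice (ERRa ko) and 2 of ventricles from wild-type mice (ERRa wt), all at baseline and without pressure overload. The labels do not state the strain, age or sex of the mice, the construction of the null allele, or whether each sample came from 1 animal, so a p-value reflects how far these samples differ from one another, and part of that may be technical.

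The core particle is a barrel of stacked rings. The α subunits form the outer rings and gate the entry, and the β subunits form the inner rings, in which Psmb5, Psmb6 and Psmb7 carry the chymotrypsin-like, caspase-like and trypsin-like activities. The regulatory particle caps the barrel: its base holds a ring of ATPases (Psmc1 to Psmc6) that unfold substrates and open the gate, and its lid holds the enzyme that removes ubiquitin (Psmd14) among scaffold subunits. Heart muscle renews its contractile proteins in part through this pathway, and the subunit genes are known to be transcribed together under the factor encoded by Nfe2l1.

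The arrays had scaled signals with no count of reads or molecules behind them, and the number of arrays limits the precision. Esrra gave 2688 and 2828 on the wild-type arrays against 83.6 and 55.2 on the knockout arrays with 1 probe set, and 8598 and 8039 against 922 and 1050 with the other, so its signal followed the labels. The ventricular cardiomyocyte list had 9 of 10 genes on the array, and all 9 passed the filter. The summed cardiomyocyte signal was 989311 and 987452 in wild type and 817696 and 958804 in knockout. Of the lists for other cell types, the 7 fibroblast genes summed to 62110 and 73170 in wild type and 84949 and 89270 in knockout, with 6 of them higher without overlap, and the 9 immune genes to 11518 and 11195 against 12867 and 11529. The 6 smooth muscle genes summed to 11877 and 11195 in wild type and 25257 and 17859 in knockout. The higher sum lay in Acta2, with 4135 and 2909 against 18753 and 10916; the other 4 of the 5 smooth muscle genes that passed the filter had a lower mean in knockout, and the median log2 difference of the 5, knockout minus wild type, was -0.08. The 6 endothelial genes summed to 17448 and 14294 against 13117 and 12470, with 5 of the 6 lower on average, 2 of them without overlap, and a median of -0.16. The 6 atrial genes summed to 35456 and 29250 against 31339 and 32342. Of the 5 atrial genes that passed the filter, Myl7, Myl4, Nppa and Stard10 were higher without overlap and Clu was lower without overlap, with a median of 0.79. Over all genes tested, 17.5% were lower and 19.9% higher without overlap. The 4 adipocyte genes summed to 1797 and 1485 against 2744 and 3312, the 4 erythroid genes to 205115 and 149534 against 159136 and 224658, and the 5 skeletal muscle genes to 3409 and 2849 against 3580 and 3345. No marker gene on the array, judged by its brightest probe set, was below the signal floor on all 4 arrays. The ratio of 5' to 3' signal was 0.966 and 0.909 for β-actin in wild type against 0.694 and 0.813 in knockout, and 1.04 and 1.01 against 0.994 and 0.968 for Gapdh.

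As a group, the constitutive subunits had slightly lower signal in the knockout ventricles. Of the 31 genes, 24 had a lower mean in knockout, where 48.5% of the 5653 genes tested did and 54% of the 2261 genes in the upper 40% of signal. Both knockout arrays lay below both wild-type arrays for 13 of the 31 genes, or 41.9%, where 17.5% of all genes and 21.4% of the genes in the upper 40% of signal did. No subunit was higher without overlap, where 19.9% of all genes were. The median log2 difference, knockout minus wild type, was -0.095 over the 31 genes against 0.014 over all genes tested and -0.023 over the genes of the upper 40%. After median scaling, which put the median of all genes at -0.11, 28 of the 31 genes had a lower mean, where 63.4% of all genes did, and 20 were lower without overlap, where 28.7% of all genes were. After quantile normalization 21 had a lower mean, where 51.3% of all genes did, and 9 were lower without overlap, where 18.8% were. The main median corresponds to a wild-type signal 1.07-fold that of knockout. In bulk tissue, fewer cells of a type and less RNA per cell cannot be told apart. The cardiomyocyte markers had a median of -0.13, with 8 of 9 lower, the fibroblast markers a median of 0.33, the endothelial markers one of -0.16 and the atrial markers one of 0.79; the part of these markers, and of the 5' to 3' ratios above, in the subunits' result was not tested.

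No subunit passed on its own. In limma's fit over 7453 probe sets, where 0.0134% passed (1 probe set, of Esrra), 0 of 38 member probe sets had an adjusted p under 0.05, and the adjusted p ran from 0.725 to 0.988. At an unadjusted p under 0.05 there was 1, that of Psma1, where 6.79% of all probe sets lay. The brighter probe set of Esrra itself, with a log2 difference of -3.08, did not pass (limma adjusted p = 0.179). With 2 arrays a group, a subunit that did not pass was therefore not shown to be unchanged. The median replicate SD of the members was 0.16 on the log2 scale and the median size of their differences 0.14. In 16 of the 31 genes, or 51.6%, the difference was larger than the gene's own replicate SD, where this held for 46.2% of all genes tested, so the members' share lay near the background. For a single gene, 2 arrays against 2 allow no exact permutation p (two-sided) smaller than 0.333, and no such test was made.

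**Figure D1:**
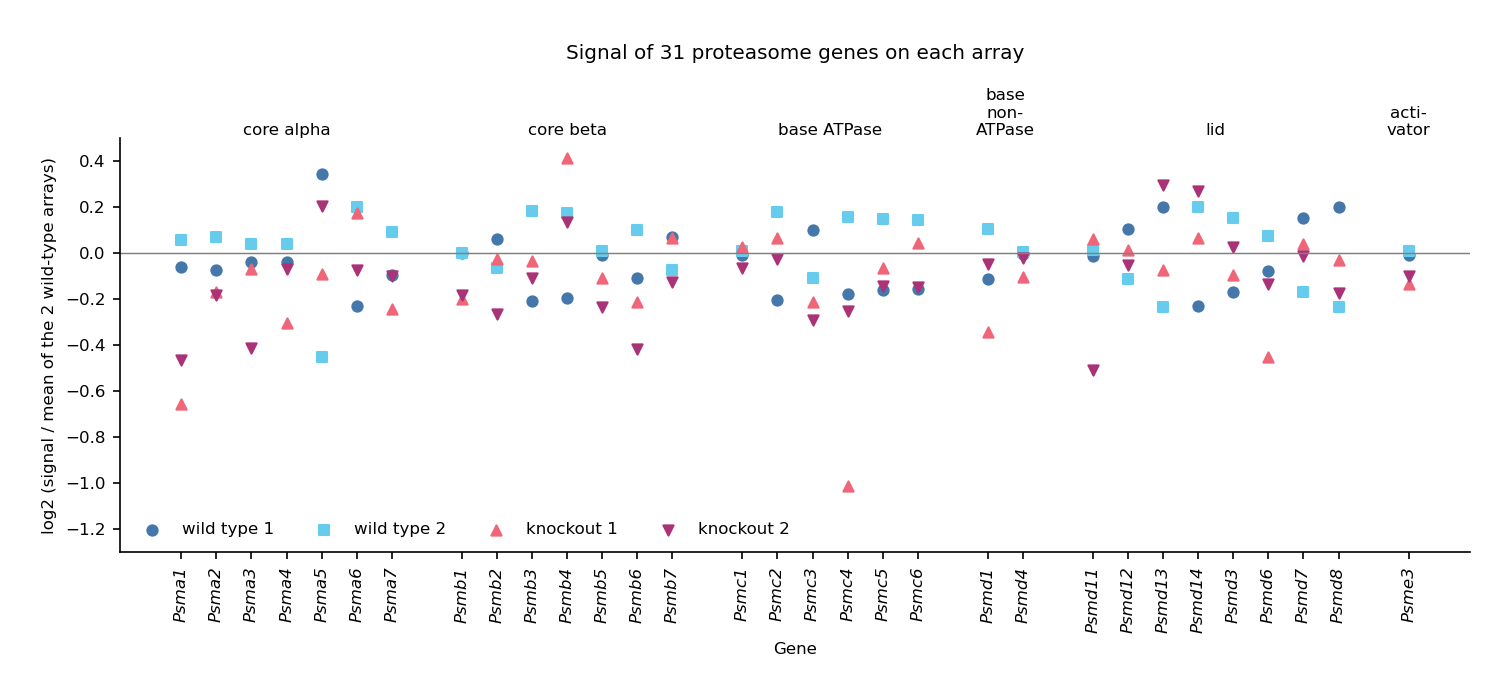
Signal of each of the 31 genes on the 4 arrays, as log2 of the ratio to the mean of the 2 wild-type arrays (vertical axis), with the genes ordered by subcomplex (horizontal axis); points are arrays. Both knockout arrays (triangles) lie below both wild-type arrays for 13 genes, 5 of them among the 7 α subunits and 1 among the 8 lid subunits. The share over all genes tested was 17.5%.

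Of the 4 subcomplexes compared, the α subunits had the largest share of genes lower in knockout without overlap, whereas the β subunits had the largest share with a lower mean (6 of 7, against 5 of 7 α subunits). Of the 7 α genes, 5 were lower without overlap (Psma1, Psma2, Psma3, Psma4 and Psma7), and the median log2 difference was -0.18. Of all genes tested, 48.5% had a lower mean and 17.5% were lower without overlap, for comparison with the counts of each subcomplex. Psma1 gave 1520 and 1650 on the wild-type arrays and 1007 and 1149 on the knockout arrays. Its groups lay well apart, with the knockout mean at 68.0% of the wild-type mean (1585 ± 91.9 against 1078 ± 101, SD, n = 2 each). The log2 difference was -0.56 with a 95% interval from -1.11 to -0.01, and did not pass over all probe sets (limma adjusted p = 0.725). Its promoter is shown because Psma1 had the lowest p among the subunits; the sequence is the 250 bases before the RefSeq start (GRCm38.p6, chr7:114276117-114276366, minus strand), with matches of the CCAAT box on either strand in capitals.
Psma1: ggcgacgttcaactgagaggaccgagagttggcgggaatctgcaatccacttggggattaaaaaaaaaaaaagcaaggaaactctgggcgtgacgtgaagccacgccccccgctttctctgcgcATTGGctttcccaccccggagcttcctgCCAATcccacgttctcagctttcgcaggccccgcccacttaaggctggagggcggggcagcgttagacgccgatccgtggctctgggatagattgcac

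Psma3 gave 10202 and 10747 in wild type and 9985 and 7868 in knockout. Knockout replicate 1 lay close to the wild-type arrays, so most of the log2 difference of -0.24 (SE 0.23) came from knockout replicate 2. Its only probe set carries a suffix that marks possible cross-hybridization. The 250 bases before the Psma3 start (GRCm38.p6, chr12:70974373-70974622, plus strand) are shown because they hold the nuclear receptor core site AAGGTCA, in capitals and on the opposite strand.
Psma3: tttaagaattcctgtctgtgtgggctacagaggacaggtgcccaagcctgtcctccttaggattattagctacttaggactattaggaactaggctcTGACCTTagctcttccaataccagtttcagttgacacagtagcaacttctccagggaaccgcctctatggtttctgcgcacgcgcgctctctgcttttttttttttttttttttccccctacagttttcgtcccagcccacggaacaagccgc

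Psma4 gave 5908 and 6233 in wild type and 4916 and 5782 in knockout, Psma2 9259 and 10220 against 8655 and 8576, and Psma7 5635 and 6404 against 5084 and 5623. Each of these 3 genes had its lowest signals on the knockout arrays, but knockout replicate 2 reached 5623 for Psma7 against 5635 on wild-type replicate 1. Their log2 differences were -0.19, -0.18 and -0.17, with SEs of 0.21, 0.20 and 0.21. The other α subunits did not follow this order. Psma5 gave 5258 and 3034 in wild type and 3897 and 4777 in knockout (log2 difference 0.11), and Psma6 gave 11573 and 15574 against 15315 and 12900 (0.07). Both had overlapping groups, and the 2 wild-type arrays lay farther apart than the group means did.

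The β subunits had a median log2 difference of -0.14, with 6 of 7 lower on average and 3 lower without overlap (Psmb1, Psmb5 and Psmb6). Psmb6, the caspase-like subunit, gave 6959 and 8046 in wild type and 6464 and 5624 in knockout. Its groups did not overlap, and the log2 difference was -0.31 (95% interval -0.88 to 0.26; limma adjusted p = 0.829). Psmb5, the chymotrypsin-like subunit, had 2 probe sets, both lower in knockout without overlap. The brighter one gave 5369 and 5420 in wild type and 5005 and 4582 in knockout (log2 difference -0.17, SE 0.20). The dimmer one gave 1890 and 1356 against 1230 and 983 (-0.54, SE 0.27; limma adjusted p = 0.790), so the probe sets shared a direction and differed in size. Psmb7, the trypsin-like subunit, gave 7151 and 6478 in wild type and 7136 and 6249 in knockout, a log2 difference of -0.03 with an interval from -0.58 to 0.53. Of the 3 catalytic subunits, Psmb7 alone had overlapping groups. Its only probe set and the brighter Psmb5 probe set carry suffixes that mark possible cross-hybridization.

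The promoters of Psmb5 and Psmb6 are shown because, alone among the β subunits with an entry, they hold the antioxidant response element TGACNNNGC. It is the motif bound by the factors encoded by Nfe2l1 and Nfe2l2. Psmb1, Psmb2 and Psmb7 had no entry and were not searched. The sequences are the 250 bases before the RefSeq starts (GRCm38.p6, chr14:54617996-54618245, minus strand, and chr11:70525107-70525356, plus strand), with the match in capitals. The Psmb5 match began 47 bases before the start and the Psmb6 match 9 bases before it.
Psmb5: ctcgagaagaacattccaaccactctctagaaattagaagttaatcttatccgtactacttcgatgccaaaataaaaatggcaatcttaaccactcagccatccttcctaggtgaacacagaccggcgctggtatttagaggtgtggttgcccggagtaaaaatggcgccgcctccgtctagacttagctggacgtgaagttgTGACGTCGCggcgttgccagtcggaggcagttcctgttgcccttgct
Psmb6: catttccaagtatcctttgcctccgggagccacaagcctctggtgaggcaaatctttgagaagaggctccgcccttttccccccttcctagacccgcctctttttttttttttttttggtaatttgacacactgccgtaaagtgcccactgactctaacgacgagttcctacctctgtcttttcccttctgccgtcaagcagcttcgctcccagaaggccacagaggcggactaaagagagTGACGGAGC

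The non-catalytic β subunits were mixed. Psmb1 gave 6495 and 6486 in wild type and 5653 and 5725 in knockout on its brighter probe set (log2 difference -0.19), and 4981 and 4589 against 3765 and 4469 on the next (-0.22). The brighter probe set had close replicates in both groups, and the order of the groups was the same on both probe sets. Psmb4 had probe sets of opposite sign. The brighter, whose suffix marks possible cross-hybridization, gave 8881 and 11465 in wild type and 13553 and 11162 in knockout (log2 difference 0.29), and the dimmer 579.5 and 814.5 against 659.5 and 492 (-0.27). Their groups overlapped, and the third Psmb4 probe set and the third of Psmb1 were too dim to pass the filter. Psmb2 and Psmb3 had differences of -0.14 and -0.06 with overlapping groups.

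**Figure D2:**
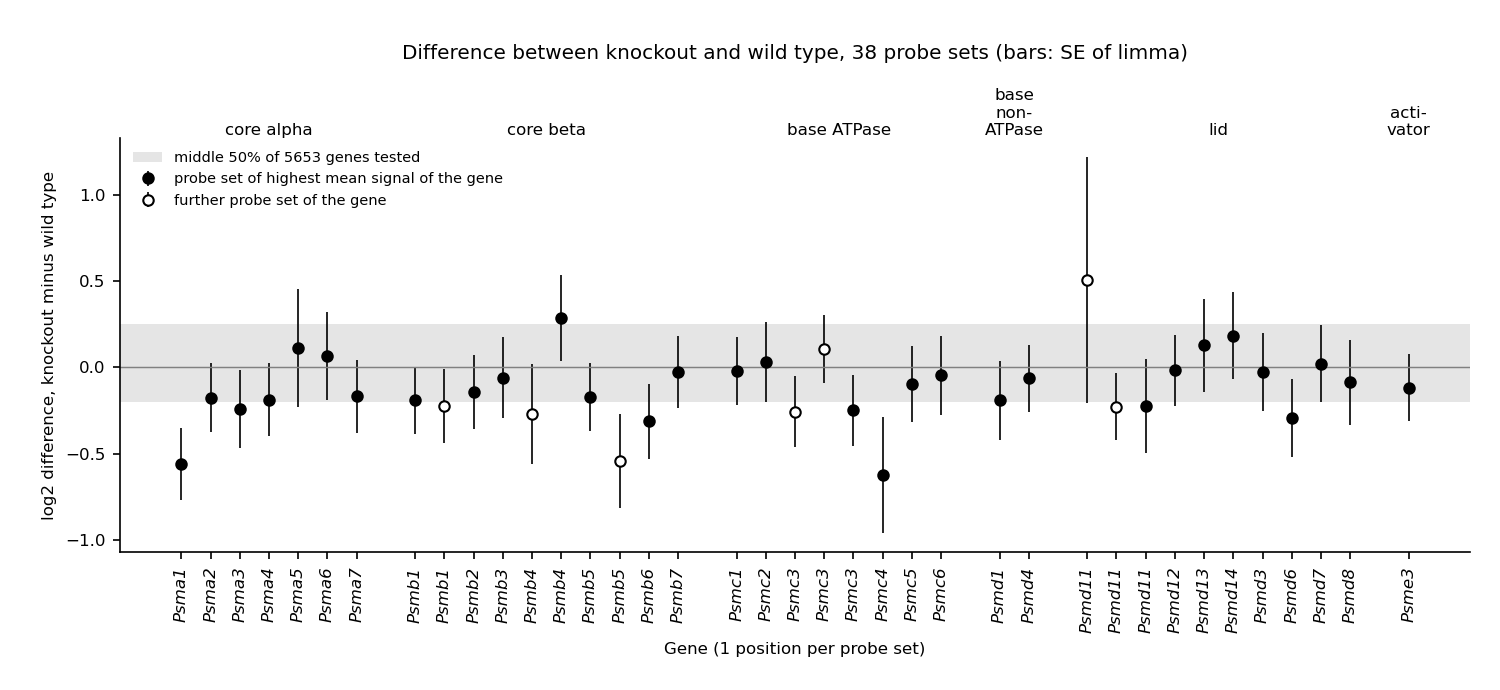
Log2 difference between knockout and wild type (vertical axis) for each of the 38 member probe sets that passed the filter, by subcomplex (horizontal axis); bars are the SE of limma, and the grey band spans the middle 50% of the 5653 genes tested, from -0.20 to 0.25. Filled points are the probe set used for the gene, open points its further probe sets; Psma1 at -0.56 and Psmc4 at -0.62 lie lowest, and the probe sets of Psmb4, Psmc3 and Psmd11 lie on both sides of 0.

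The base ATPases had a median log2 difference of -0.070, with 5 of 6 lower on average and 2 lower without overlap (Psmc3 and Psmc4). Psmc4 gave 433 and 547 in wild type and 243 and 411 in knockout. It had the most negative difference of the 31 genes, -0.62 (95% interval -1.51 to 0.27; limma adjusted p = 0.799), with the knockout mean at 66.7% of the wild-type mean. It was also a dim probe set, and knockout replicate 1 alone lay far below the rest. The Psmc4 difference was -0.24 without knockout replicate 1 and -1.0 without knockout replicate 2. Raising the signal floor to the 40th percentile gave -0.38. In the first and the last of these Psma1 was lower than Psmc4, at -0.46 and -0.56, and Psmc4 did not pass a filter at the 60th percentile. Psmc3 had 3 probe sets, all with suffixes that mark possible cross-hybridization. The brightest gave 7171 and 6217 in wild type and 5774 and 5473 in knockout (log2 difference -0.25), and the dimmest 1207 and 1245 against 953 and 1107 (-0.26). The third gave 2878 and 2890 against 3037 and 3177 (0.11) and was the only member probe set that was higher in knockout without overlap. Psmc1, Psmc2, Psmc5 and Psmc6 had differences from -0.095 to 0.032, with overlapping groups.

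The other base subunits include ubiquitin receptors and scaffolds. Psmd1, a scaffold, gave 8360 and 9729 in wild type and 7133 and 8761 in knockout, a log2 difference of -0.19 with overlapping groups. Psmd4, a ubiquitin receptor, gave 4845 and 4873 against 4520 and 4781 (-0.06), lower without overlap by a small margin. Psmd2, the partner scaffold, was dim on the 4 arrays, with 69.0 and 86.9 in wild type and 69.6 and 230 in knockout, so no difference is given. Psmd10, a chaperone of base assembly also called gankyrin, was dim as well, with 320 and 250.5 in wild type and 161 and 229 in knockout. Its knockout arrays both lay below the wild-type arrays, at a level left out of the fit.

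The lid subunits had a median log2 difference of -0.022, the smallest of the subcomplexes, with 5 of 8 lower on average and 1 lower without overlap. That 1 was Psmd6, a scaffold subunit, with 5473 and 6084 in wild type and 4222 and 5264 in knockout (log2 difference -0.29, SE 0.23; limma adjusted p = 0.836). Psmd11, another scaffold subunit, had 3 probe sets. The brightest gave 8272 and 8419 in wild type and 8717 and 5868 in knockout (-0.22), so only knockout replicate 2 was low. The next gave 2328 and 2310 against 2013 and 1947 (-0.23), lower without overlap and with close replicates. The third, a dim one, gave 414 and 685 against 1479 and 387 (0.51, SE 0.71), and 1 knockout array set its sign. Psmd14, the deubiquitinating enzyme of the lid, gave 1716 and 2311 in wild type and 2107 and 2431 in knockout (0.18), and Psmd13 2233 and 1650 against 1846 and 2382 (0.13). Psmd3, Psmd7, Psmd8 and Psmd12 had differences from -0.085 to 0.021. The groups overlapped for each of these 6 genes. Psme3, which encodes the nuclear activator REGγ, gave 1741 and 1767 in wild type and 1597 and 1636 in knockout (-0.12), lower without overlap.

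Set side by side, the subcomplexes ran from the core to the lid in the order α, β, ATPases and lid, with medians of -0.18, -0.14, -0.070 and -0.022, and 5 of 7, 3 of 7, 2 of 6 and 1 of 8 genes lower without overlap. The 2 measured base subunits that are not ATPases were left out of this order. Their median was -0.13, between those of the β subunits and the ATPases. Over the whole core particle 8 of 14 genes were lower without overlap, or 57.1%, and over base and lid 4 of 16, or 25%. This held for 17.5% of all genes tested and 21.4% of those in the upper 40% of signal. The share of base and lid thus lay near the background, and that of the lid alone, 12.5%, below it. The order was not tested, since with 2 arrays a group no exact test can reach 0.05. The arrays themselves give its spread. For the α subunits, the median deviation from the gene's mean over the 4 arrays was 0.055 and 0.16 on the wild-type arrays and -0.091 and -0.091 on the knockout arrays, so the groups lay apart. For the β subunits it was 0.079 and 0.093 against 0.0085 and -0.11, so the groups lay apart here too. For the ATPases it was -0.053 and 0.17 against 0.014 and -0.071, so the arrays of the groups interleaved, with knockout replicate 2 lowest and wild-type replicate 2 highest. For the lid it was 0.11 and 0.012 against 0.0070 and -0.0011. Both wild-type arrays lay above both knockout arrays, 1 of them by a small margin. Over all 31 members the median deviation was 0.055 and 0.12 against -0.022 and -0.055, with the groups apart. Without wild-type replicate 2 the ATPase median became 0.024 and the lid median -0.13. The lid median was 0.030 with wild-type replicate 1 left out. Leaving out knockout replicate 2 gave a β median of -0.023, so the order of the subcomplexes depended on single arrays. The α median ran from -0.25 to -0.095 without each array in turn, and it was not always the lowest of the 4. Without knockout replicate 1 the α, β and ATPase medians were -0.095, -0.18 and -0.14, and without wild-type replicate 2 the α and β medians were -0.15 and -0.16. Without the probe sets whose suffix marks possible cross-hybridization they were -0.17 and -0.23.

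**Figure D3:**
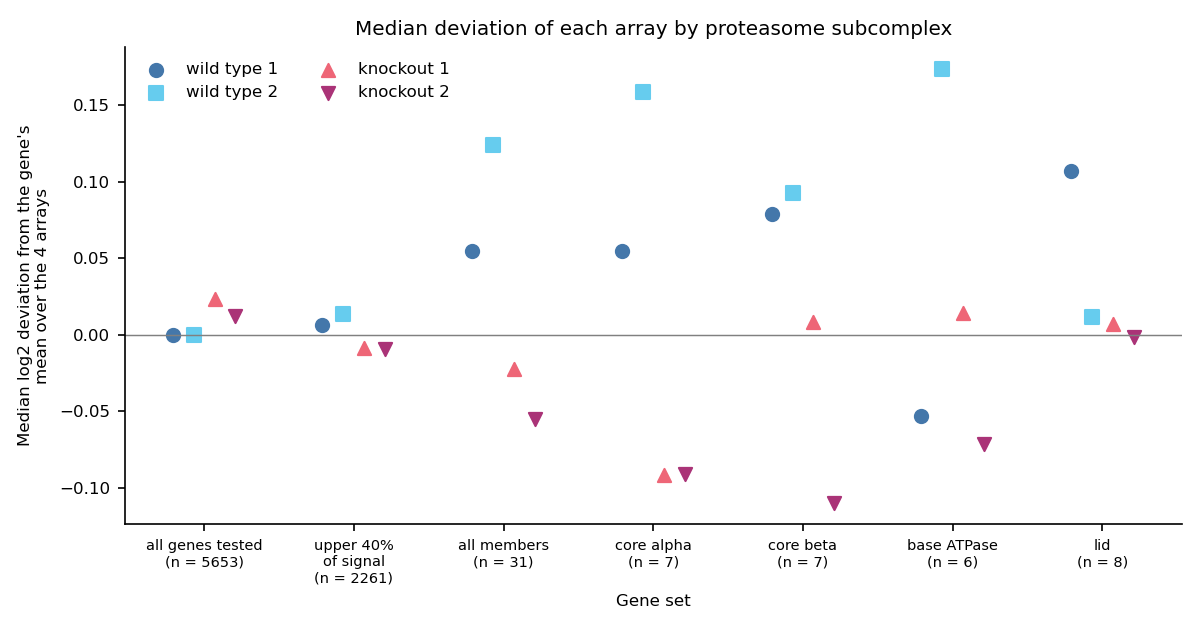
Median over genes of the log2 deviation from the gene's own mean over the 4 arrays (vertical axis), for each array (points) and for all genes tested, the upper 40% of signal, the 31 members and 4 subcomplexes (horizontal axis). The α subunits have both wild-type arrays (0.055 and 0.16) above both knockout arrays (-0.091 and -0.091). The same order holds for the β subunits, the 31 members and, by small margins, the lid and the upper 40% of signal. The arrays of the ATPases interleave.

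Wild-type replicate 2 stood highest for many subunits. It had the highest signal of the 4 arrays for 18 of the 31 genes, or 58.1%, where it was highest for 24.1% of all genes tested and 28.1% of those in the upper 40% of signal. Among the α subunits it was highest for 6 of 7. Wild-type replicate 1 was highest for 8 of the 31 genes, knockout replicate 1 for 3 and knockout replicate 2 for 2. Without wild-type replicate 2 the median of the 31 genes was -0.11, against 0.0052 over all genes, and without wild-type replicate 1 it was -0.18. Without knockout replicate 2 it was -0.057, against 0.029 over all genes. Without each array in turn, the subunits' median minus that of all genes was between -0.19 and -0.085.

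The inducible subunits of the immunoproteasome, which replace the catalytic β subunits when interferon is present, were read from the same arrays. The 4 genes of that list on the array, Psmb8, Psmb9, Psmb10 and Psme1, all had a lower mean in knockout, with a median log2 difference of -0.38. Lower without overlap were 2 of the 4 genes, and 17.5% of all genes tested. Psme1, a subunit of the interferon-induced activator, gave 8496 and 11098 in wild type and 5540 and 5796 in knockout (log2 difference -0.78, SE 0.23; limma adjusted p = 0.694). Psmb9, which takes the place of Psmb6, gave 729 and 1151 against 658 and 776 (-0.36). The replacement for Psmb5, encoded by Psmb8, gave 1254 and 2279 against 1191 and 1381. For both inducible subunits wild-type replicate 2 was far the highest array, whereas Psmb6 and the brighter Psmb5 probe set were lower on both knockout arrays than on either wild-type array. Psmb10, the counterpart of Psmb7, gave 5309 and 5164 against 4843 and 4640 (-0.14), lower without overlap.

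Other genes of the pathway, from lists chosen by function, did not share a direction, and 0 passed (limma, 1 at an unadjusted p under 0.05 among the probe sets used for these genes, that of Psme1). Of the genes for deubiquitinases and shuttle factors 6 of 8 were lower and 3 without overlap (median -0.21), against 48.5% and 17.5% of all genes tested. Usp5, which recycles free ubiquitin chains, gave 4144 and 4071 in wild type and 2678 and 3210 in knockout (log2 difference -0.49). Usp14, the deubiquitinase that docks on the regulatory particle, gave 1985 and 1755 against 1435 and 1362 (-0.42). Both had clearly separate groups at a limma adjusted p of 0.748 and 0.781. Rad23b, a shuttle factor, had probe sets of opposite sign, at -0.48 and 0.46.

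The assembly chaperones of the core had 2 of 5 genes lower and a median of 0.04. Pomp, the maturation protein of the β rings, gave 6115 and 8083 in wild type and 4912 and 6258 in knockout (-0.34), and Psmg1 2061 and 1447 against 2463 and 1978 (0.35). The groups of both overlapped. A dimmer probe set of Psmg3 gave 339 and 251 against 1265 and 1279 (2.13; limma adjusted p = 0.430), while the brighter one gave 0.07. The further subunits and activators Psmd5, Psmd9, Sem1 and Psme4 had a median of 0.07, with Psmd9 at -0.34, Psmd5 at 0.34 and groups that overlapped for both.

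Upstream of the proteasome, 10 genes of ubiquitin conjugation had a median of -0.04, with 3 lower and 2 higher without overlap. The shares over all genes tested were 17.5% lower and 19.9% higher. Ube2k had 522 and 2026 in wild type and 2493 and 2284 in knockout (log2 difference 1.21), set by the low wild-type replicate 1, and Ube2a 940 and 876 against 1106 and 1194 (0.34). A dimmer Ube2k probe set had a difference of -0.01, and the probe sets of Ube2h had 0.55 and 0.01. The 8 ligase genes had a median of 0.10, with 2 lower and 3 higher without overlap, against the same shares over all genes. Nedd4 gave 5684 and 6278 against 7468 and 7493 (0.32), and Mdm2 1258 and 1766 against 1793 and 2258 (0.43); a dimmer Nedd4 probe set had -0.19. The segregase Vcp, which extracts ubiquitin-tagged proteins from complexes, gave 10385 and 9088 against 11238 and 10931 (0.19), and its cofactor Ube4b 1303 and 1432 against 1750 and 1688 (0.33). These 4 genes were higher in knockout without overlap, the direction opposite to most constitutive subunits.

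Of the transcription factors that act on proteasome genes, 8 were measured, with a median of 0.08. Without overlap 1 was lower and 3 were higher, against 17.5% and 19.9% of all genes tested. Nfe2l1, the main activator of the subunit genes, gave 17047 and 15736 in wild type and 16890 and 15053 in knockout on its brighter probe set (log2 difference -0.04). The dimmer one gave 2960 and 3628 against 3568 and 4747 (0.33), so its groups overlapped on both. Nfyb, a subunit of the factor that binds the CCAAT box, gave 529 and 653 against 915 and 769 (0.51), and Maff, a small partner of the Nfe2l factors, 110 and 387 against 489 and 567 (1.35). The groups of both were separate, and wild-type replicate 1 of Maff lay at the signal floor.

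**Figure D4:**
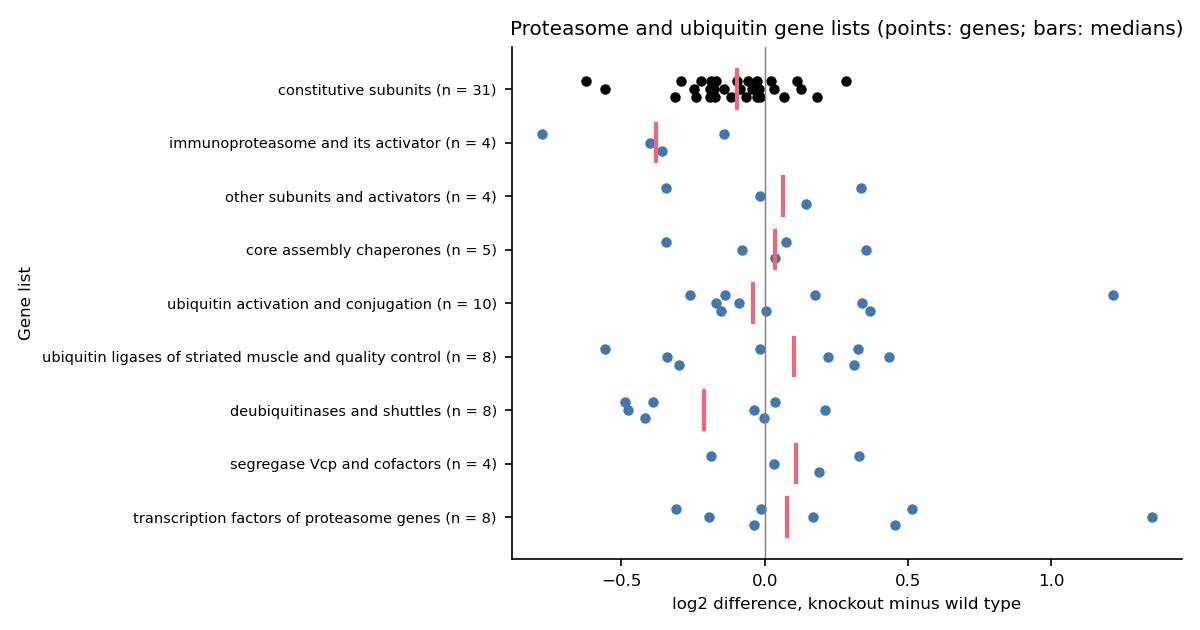
Log2 difference between knockout and wild type (horizontal axis) of the 31 constitutive subunits and of 8 further gene lists (vertical axis); points are genes and bars are medians. The immunoproteasome list lies lowest at -0.38, and the constitutive subunits have a median of -0.095. The further subunits and activators, the assembly chaperones, the ligases, the Vcp group and the transcription factors have medians above 0.

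Promoters of the subunits were searched for 9 motifs on both strands, in the RefSeq window from 250 bases before to 50 after the start. Of the 33 genes, 27 matched an entry. The full element of the estrogen-related receptors, TNAAGGTCA, was found in 0 of 27, against 1.43% of all genes with an entry and 0.991% of genes tested. At shares this low, 0 of 27 does not set the subunits apart from other genes. The core site AAGGTCA, which the full element contains, was in Psma3 and Psmd2, or 7.41%, against 5.38% of all genes and 4.54% of genes tested. The antioxidant response element TGACNNNGC was in 4 of 27 (Psmb5, Psmb6, Psmc6 and Psmd12), or 14.8%, against 14% of all genes and 17.3% of genes tested here. A match is a description of letters, not a site of binding, and no match says only that these letters are not in this window. The 4 genes with the antioxidant element had a median log2 difference of -0.11 and the 21 measured genes without it one of -0.095.

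The CCAAT box, CCAAT, was in 12 of 27 promoters (44.4%, against 41.1% of all genes), and the 11 measured genes with it had a median of -0.06 against -0.13 for the 14 without. The Ets core CCGGAAG was in 11 (40.7%, against 9.93% of all genes and 19.9% of genes tested), with medians of -0.03 with it and -0.17 without. Psma6 was the only core subunit among the 11. The core particle had a median of -0.17 and base and lid one of -0.055, so motif and subcomplex cannot be told apart. No split of the subunits by a motif was tested. The Sp1 box GGGCGGG was in 12 (44.4%, against 27.9% and 52.2%), and the 10 measured genes with it had a median of -0.18 against -0.06 for the 15 without. The counts were 0 for the cyclic AMP response element TGACGTCA (against 2.03% and 3.55%) and 1, Psmb6, for the YY1 element, searched by its consensus (against 0.755% and 1.83%). The element of nuclear respiratory factor 1, a regulator of mitochondrial genes, was searched by its consensus with 1 free base and was in 6 promoters (22.2%, against 5.19% and 12.1%). These 6 genes had a median of -0.18 and the 19 measured genes without it one of -0.06, values close to those for the Sp1 box. The 6 matches are shown because 3 of them lie in the α subunits with separate groups, a choice made from the values themselves. They are given in gene orientation with the match in capitals and 10 bases on either side.
Psma2: ggcccctcttGCGCATGCGCaagggtcaaa
Psma3: tatggtttctGCGCACGCGCgctctctgct
Psma4: tcgcagtcctGCGCACGCGCgggagccata
Psmc4: aagagttactGCGCACGCGCaacatccttg
Psmc5: tttcgcctccGCGCCTGCGCgatagagtga
Psmd14: caggcggcctGCGCGTGCGCtgtgtgctcc
The match began 127 bases before the start in Psma2, 78 in Psma3, 61 in Psma4, 169 in Psmc4, 49 in Psmc5 and 80 in Psmd14. Psma2, Psma3, Psma4 and Psmc4 were lower in knockout without overlap, and Psmc5 (-0.09) and Psmd14 (0.18) had overlapping groups. Lower without overlap were 13 of all 31 members and 17.5% of all genes tested. Psma1 and Psma7, also lower without overlap, had an entry and no match of this element. A link between the element and the differences was not tested.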

How the data were processed

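RNA of 4 ventricle samples was measured on one-colour oligonucleotide arrays after oligo-dT priming and biotin labelling, per the labels' protocols. The deposited values are a linear intensity per probe set, scaled by the authors so that the mean without the top and bottom 2% of probe sets is 1501 on every array; summary software and background correction are not given in the sources used here. Groups came from the titles. Symbols came from the platform's annotation, updated through the RefSeq table of GRCm38.p6 (10817 of 10833 probe sets with 1 symbol matched; 396 had several and 1193 none), and the 66 controls were removed. Probe sets with a mean under the 40th percentile (350.6) were left out, leaving 7453; signals under 110, the 20th percentile of the pooled values, were set to that floor before log2. A gene was represented by its probe set of highest mean. The test was limma's (version 3.58.1, lmFit and eBayes, R 4.3.3), with Benjamini-Hochberg adjustment over 7453 probe sets and a threshold of 0.05. This fit was tried on simulated log2 values with known changes. Lists were described by counts and medians. Promoters and their build came from RefSeq. Each subcomplex's 3 probe sets of lowest p, the catalytic, base non-ATPase and activator genes, Psmd10 and probe sets of opposite sign were given array by array, and the 2 genes of lowest p of each other list; further genes were added after their values were seen. Members and lists were chosen with earlier results of these data known. The labels do not state that the same sample number pairs samples, so the main fit had no pairing. The correlation between genotypes of the differences of replicate 1 and 2 was 0.01 over 7453 probe sets. This single value cannot show that samples of the same number were unrelated.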

Additional observations from a re-analysis of the deposited data

How the results depend on the processing

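Over 12 alternatives, 0 of 38 subunit probe sets passed, with limma adjusted p from 0.427 upward. The number of probe sets past the threshold over the whole array was 0 with the floor at the 5th or the 40th percentile, with no filter and with the replicate block, 2 with the filter at the 60th percentile and with the trend and robust prior, and 0 without each array in turn, so the single Esrra call depended on these settings. Median scaling put the median of all genes at -0.11; the subunits' median was then -0.22 (-0.11 relative to all genes) and those of the α, β, ATPase, non-ATPase base and lid genes -0.30, -0.27, -0.19, -0.25 and -0.15, with 20 subunits lower without overlap. With the replicate block 16 subunits were lower in both numbered pairs, where 24.9% of all genes were; the median was the same, and no subunit was called with or without it. Without suffixed probe sets the β median was -0.23. Without 1 array the median of the subunits ran from -0.18 to -0.057, that of the α genes from -0.25 to -0.095, β from -0.18 to -0.023 and lid from -0.13 to 0.030, and 14 to 20 subunits were lower without overlap; with 1 array left in a group the share over all genes was 32.3% to 33.3%, and the lone array is assumed to vary like the others. Single differences turned sign in 33 of 453 values, 25 of them without 1 array. After quantile normalization these were Psmb3 (0.0078), Psmc6 (0.017) and Psmd3 (0.0071), and after median scaling Psma5 (-0.012), Psma6 (-0.058), Psmc2 (-0.091), Psmc3 (-0.017) and Psmd7 (-0.10). Without 1 array the range was -0.29 to 0.51 for Psma5, -0.15 to 0.28 for Psma6, -0.26 to 0.14 for Psmb3, -0.12 to 0.068 for Psmb7, -0.065 to 0.026 for Psmc1, -0.16 to 0.22 for Psmc2, -0.25 to 0.060 for Psmc5, -0.20 to 0.10 for Psmc6, -0.46 to 1.47 for the dim and -0.51 to 0.063 for the brightest Psmd11 probe set, -0.12 to 0.090 for Psmd12, -0.091 to 0.35 for Psmd13, -0.030 to 0.40 for Psmd14, -0.19 to 0.13 for Psmd3, -0.14 to 0.18 for Psmd7 and -0.30 to 0.13 for Psmd8. The cause of these changes was not tested.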
